A study of Mus musculus with 12 samples.

Results

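The genes described here encode major histocompatibility complex class I (MHC-I) molecules and their activator, as measured in Myc-CaP cells, a mouse prostate cancer line driven by Myc. The rule lists them by name and uses no measured value. The members were chosen with earlier results of these data known, so counts of members beside all genes are not a blind comparison. They are the classical heavy chains H2-K1 and H2-D1, the nonclassical heavy chains H2-T23, H2-M3, H2-Q4 and H2-Q7, the light chain B2m, and Nlrc5. These are 8 of the 55216 rows of the count table. Of the 8, 7 passed the filter on low counts and are among the 13177 genes tested. H2-Q7 did not pass, and Nlrc5 passed only through the groups in which it was high. Its rise over groups in which it was low is thus partly set by the filter. Counts of members below include Nlrc5.

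Myc-CaP is 1 cell line of the FVB/NJ mouse strain, and RNA-seq was made from its poly(A) RNA 48 h after treatment. The 12 libraries form 6 groups of 2. Ctrl was untreated. Oxali received oxaliplatin, a platinum drug that crosslinks DNA, at 2 μM. IFN200 and IFN2000 received interferon γ (IFNγ) at 200 and 2000 pg, for which the labels give no volume. The study states its IFNγ doses per mL. Combo200 and Combo2000 received oxaliplatin with the lower and the higher IFNγ dose. Groups follow the titles of the samples. In the 6 libraries given 1 agent, the label that names the agent contradicts the title: libraries titled IFN200 carry the agent Oxali, those titled IFN2000 carry IFNγ 200 pg, and those titled Oxali carry IFNγ 2000 pg. Were the agent labels right, the names of the 3 single treatments below would change places. The libraries titled IFN200 differed from Ctrl in 15 genes, those titled IFN2000 in 2221 and those titled Oxali in 8911. Combo200 differed in 241 genes from the libraries titled Oxali and in 9217 from those titled IFN200, and Combo2000 in 574 from those titled Oxali and in 9522 from those titled IFN2000. By these counts both combinations, which carry oxaliplatin in title and agent label alike, lay nearer to the libraries titled Oxali than to the IFNγ libraries of the same title dose. Nothing says that the 2 libraries of a group came from separate cultures, so p-values measure the spread between libraries, which may be technical. In bulk RNA, more cells with a transcript and more transcript per cell cannot be told apart.

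An MHC-I molecule is a heavy chain paired with β2-microglobulin, the product of B2m, and it carries a peptide to the cell surface. The classical molecules show peptides to CD8+ T cells. Qa-1, the product of H2-T23, is a ligand of the CD94/NKG2A receptor of NK and T cells, H2-M3 binds formylated peptides, and H2-Q4 and H2-Q7 belong to the Qa family. NLRC5 is recruited to class I promoters by RFX, CREB or ATF, and NF-Y proteins, which bind a module that ends in an X2 box and a Y box. Upstream of that module many class I promoters hold an enhancer for NF-κB and an element for interferon regulatory factors, the ISRE.

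The promoters are shown first because this module is the part of the genes through which NLRC5 acts. RefSeq windows (GRCm38.p6) from 250 bases before to 50 bases after the annotated start were at hand for 7 of the 8 genes, all but Nlrc5. From each, 145 bases are printed along the strand of the gene. They lie at chr17:34000349-34000493 on the minus strand for H2-K1, chr17:35262888-35263032 (plus) for H2-D1, chr17:35438985-35439129 (plus) for H2-Q7, chr17:35379408-35379552 (plus) for H2-Q4, chr17:37270083-37270227 (plus) for H2-M3, chr2:122147504-122147648 (plus) for B2m and chr17:36032739-36032883 (minus) for H2-T23. Capitals mark matches to the Y box (CCAAT), the X2 core (TGACG), NF-κB letters (GGGNNTNNCC or GGGNNANNCC), the ISRE core (GAAANNGAAA), each on either strand, and a run of 11 bases, GTTTCACTTCT. Matches that overlap run together.
H2-K1: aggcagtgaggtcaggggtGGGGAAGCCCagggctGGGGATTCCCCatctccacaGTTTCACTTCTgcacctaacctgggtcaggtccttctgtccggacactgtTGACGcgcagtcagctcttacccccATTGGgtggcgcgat
H2-D1: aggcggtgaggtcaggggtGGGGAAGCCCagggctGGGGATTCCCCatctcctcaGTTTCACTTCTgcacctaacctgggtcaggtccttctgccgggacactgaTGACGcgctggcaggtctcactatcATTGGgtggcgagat
H2-Q7: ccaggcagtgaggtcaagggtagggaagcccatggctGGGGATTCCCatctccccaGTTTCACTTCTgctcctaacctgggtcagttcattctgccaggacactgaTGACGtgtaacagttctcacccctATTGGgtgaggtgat
H2-Q4: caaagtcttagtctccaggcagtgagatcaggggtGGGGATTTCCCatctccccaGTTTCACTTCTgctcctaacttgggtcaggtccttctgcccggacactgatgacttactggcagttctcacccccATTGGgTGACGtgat
H2-M3: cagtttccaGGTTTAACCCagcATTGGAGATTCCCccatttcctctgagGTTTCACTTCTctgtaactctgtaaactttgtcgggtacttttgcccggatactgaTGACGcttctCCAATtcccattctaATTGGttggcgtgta
B2m: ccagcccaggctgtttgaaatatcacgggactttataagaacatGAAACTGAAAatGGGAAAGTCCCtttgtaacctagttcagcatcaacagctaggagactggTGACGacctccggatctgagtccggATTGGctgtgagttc
H2-T23: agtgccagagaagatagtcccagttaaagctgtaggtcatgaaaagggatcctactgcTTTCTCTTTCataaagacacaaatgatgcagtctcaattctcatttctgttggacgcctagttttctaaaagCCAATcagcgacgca

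In H2-K1, H2-D1 and H2-Q7 the capitals come in 1 order: NF-κB letters, the run of 11 bases, TGACG, and last ATTGG, the Y box read on the other strand. H2-M3 has this order too, with 2 more Y box matches among them. In H2-Q4 the TGACG that matched lies after ATTGG. In B2m an ISRE core precedes the NF-κB letters and the run of 11 bases is absent. In H2-T23 an ISRE core and a Y box were the only matches printed.

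A Y box was found in 7 of the 7 windows, against 37.9% of 27025 promoter windows of the same length. TGACG was found in 6 (all windows, 21%) and the NF-κB letters in 6 (26.9%), H2-T23 being the gene without either. The ISRE core was found in 2, B2m and H2-T23 (3.49%), the GAS letters TTCNNNGAA in 1, H2-M3 (8.47%), and CACGTG, an E box bound by Myc, in 0 (7.24%). TGACG followed within 40 bases by ATTGG occurred in 5 of the 7 and in 0.625% of all windows. This ordered pair was not among the motifs planned. The run GTTTCACTTCT occurred in 5 of the 7 and in 18 windows in all (0.0666%). It was picked after these sequences had been read, as the longest run shared by at least 5 of them, which set its count. Read on the other strand it holds GAA, 2 bases and GAAA, near the ISRE core. The exact letters leave out such variants, so a window without the ISRE core may still hold a related element. Heavy chain genes are close relatives, so their windows are not independent of each other. A match describes letters and not a bound site, and the windows come from the reference genome, not from FVB/NJ.

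**Figure D1:**
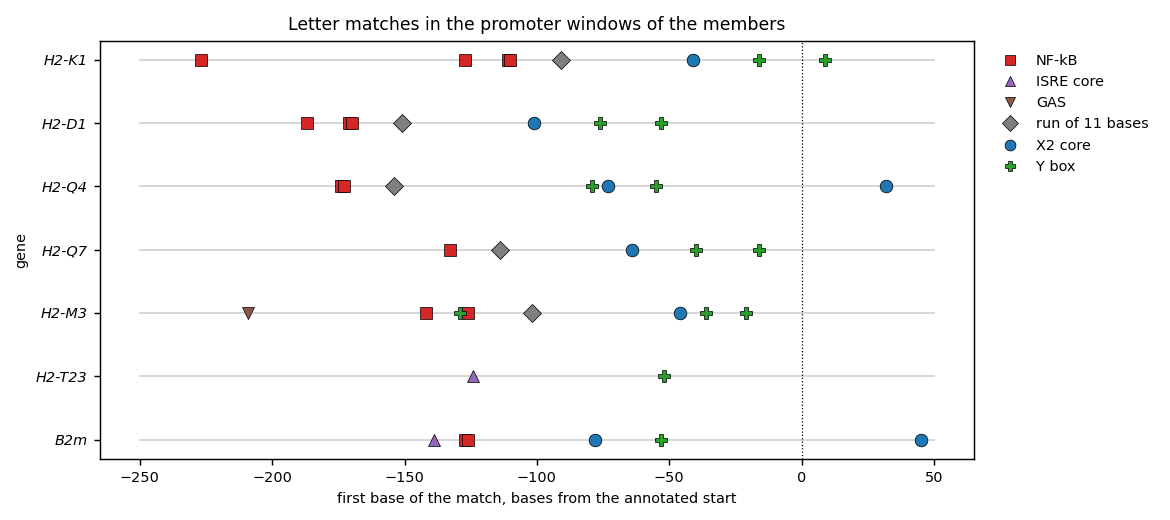
Letter matches in 7 promoter windows, one line per gene, with the distance from the annotated start in bases on the x axis. A Y box match is drawn in 7 of the 7 windows, and H2-T23 is the gene without a TGACG match.

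Library totals ran from 18749975 to 25931516 counts. A gene with no count in a library could thus still be present at 0.111 to 0.167 CPM, counts scaled by library size (3 counts, counting error only). The 2 libraries of a group differed most in Oxali, with a chi-square per degree of freedom of 9.15, against 1.71 to 5.44 in the other groups. The prostate marker Hoxb13 and the keratin Krt8 had at least 353 counts in every library, while Epcam and Pbsn had none in any and Krt18 and Cdh1 had at most 6. IFN2000 replicate 2 held T cell transcripts. In it 13 of 14 T cell markers had a count, all but Cd8a, and they summed to 23.98 CPM. In the other 11 libraries the sum was 0.442 to 5.02 CPM, most of it Lck and Il2rb. Combo200 replicate 3 had 9 counts of Ifng and 7 of Gzmb, against 117 and 175 in IFN2000 replicate 2. IFN200 replicate 1 held heart muscle transcripts, with a count for 8 of 8 markers and 63 counts of Actc1. The part of these transcripts in the results was not tested, and values without IFN2000 replicate 2 and Combo200 replicate 3, called here the 2 libraries with T cell transcripts, are given beside the calls they changed and the values they moved most.

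Per kilobase of exon, members spanned a wide range of levels in untreated cells. B2m stood at 839 ± 23.5 CPM per kilobase (mean ± SD, n = 2 libraries in each group, here and below), H2-D1 at 93.5 ± 3.14, H2-K1 at 29.7 ± 0.603 and H2-Q4 at 5.14 ± 0.310. H2-M3 and H2-T23 were lower, at 1.31 ± 0.113 and 0.333 ± 0.0739 CPM per kilobase. In Combo2000 the order was the same, with B2m at 1932 ± 66.3, H2-D1 at 247 ± 3.69, H2-K1 at 85.3 ± 0.209, H2-Q4 at 17.1 ± 0.0744, H2-M3 at 3.61 ± 0.660, H2-T23 at 2.61 ± 0.250 and Nlrc5 at 2.02 ± 0.136 CPM per kilobase. With the longest transcript as the length, H2-T23 (5.13) lay above H2-M3 (3.61) in Combo2000.

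Heavy chain rows are less certain than the others, because class I genes resemble each other and the FVB strain bears another H2 haplotype than the reference genome. The share of 50-base words of a gene's longest transcript that also occur in another gene was 8.79% for H2-K1, 14.3% for H2-D1, 29.8% for H2-T23, 0.576% for H2-M3, 39.2% for H2-Q4 and 34.9% for H2-Q7. For B2m and Nlrc5 it was 0. A heavy chain row may hold reads of a relative or lack reads of its own, and how reads of the FVB alleles were placed was not tested.

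B2m (chromosome 2, 122147686 to 122153083, GRCm38, as for the genes below) was the most abundant member in each of the 12 libraries. Its level was 735 and 707 CPM without treatment, 809.7 and 779 CPM after IFN200, 817 and 769 CPM after IFN2000, 892 and 897 CPM after Oxali, 1274 and 1311 CPM after Combo200 and 1622 and 1702 CPM after Combo2000. The untreated libraries were the lowest, IFN200 and IFN2000 overlapped, and both combinations lay above all single treatments.

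H2-D1 (chromosome 17, 35262730 to 35267499), one of the classical heavy chains, stood at 247 and 235 CPM without treatment, 255 and 259 CPM after IFN200, 308 and 294 CPM after IFN2000, 366 and 341 CPM after Oxali, 540.4 and 546 CPM after Combo200 and 629 and 643 CPM after Combo2000. No groups overlapped. In this order each step but the first passed the test.

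H2-K1 (chromosome 17, 33996017 to 34000347), the other classical chain, stood at 88.4 and 85.9 CPM without treatment, 91.4 and 92.9 CPM after IFN200, 114 and 104 CPM after IFN2000, 105 and 99.3 CPM after Oxali, 186 and 193 CPM after Combo200 and 250.2 and 251 CPM after Combo2000. Here IFN2000 and Oxali overlapped. Their log2 difference, Oxali minus IFN2000, was -0.093 (SE 0.047, adjusted p = 0.0854) for H2-K1 and 0.23 (SE 0.041, adjusted p = 4.18e-05) for H2-D1, in a comparison that called 37.1% of all genes higher and 2 of the 7 members tested.

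H2-Q4 (chromosome 17, 35379617 to 35385290) stood at 13.9 and 12.8 CPM without treatment, 12.4 and 13.9 CPM after IFN200, 15.5 and 15.3 CPM after IFN2000, 21.8 and 12.5 CPM after Oxali, 31.2 and 29.6 CPM after Combo200 and 44.5 and 44.2 CPM after Combo2000. Of the Oxali libraries, replicate 1 lay above and replicate 2 below both untreated libraries.

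H2-T23 (chromosome 17, 36029773 to 36032855) was read from few counts: 20 and 16 without treatment, 31 and 27 after IFN200, 61 and 29 after IFN2000, 66 and 38 after Oxali, 104 and 108 after Combo200 and 190 and 187 after Combo2000. H2-M3 (chromosome 17, 37270220 to 37274484) was as sparse, with 36 and 35 counts without treatment, 47 and 39 after IFN200, 75 and 41 after IFN2000, 50 and 44 after Oxali, 97 and 110 after Combo200 and 122 and 136 after Combo2000. For both genes the IFN2000 library with more counts was replicate 2, the one with T cell transcripts. In CPM the combinations lay above every other library for both genes.

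H2-Q7 (chromosome 17, 35439155 to 35443773) had 28 and 1 counts in IFN2000 and between 0 and 5 in the other 10 libraries. The 28 counts are those of the library with T cell transcripts, and elsewhere the gene was at or near the limit of 3 counts, so it was not tested.

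Nlrc5 (chromosome 8, 94434356 to 94527272) had 2 and 0 counts without treatment and 3 and 2 after Oxali. It reached 16 and 9 counts after IFN200, 74 and 60 after IFN2000, 223 and 201 after Combo200 and 485 and 379 after Combo2000. Ctrl and Oxali overlapped in CPM, and no other groups did. Oxali was below IFN200 (adjusted p = 0.00622), where 32.8% of all genes were lower and 1 of the 7 members was. In the same comparison 5 members were higher in Oxali, beside 35.3% of all genes. Combo200 lay above IFN2000 in 7 of the 7 members, beside 38.3% of all genes, although its IFNγ dose was the lower one.

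**Figure D2:**
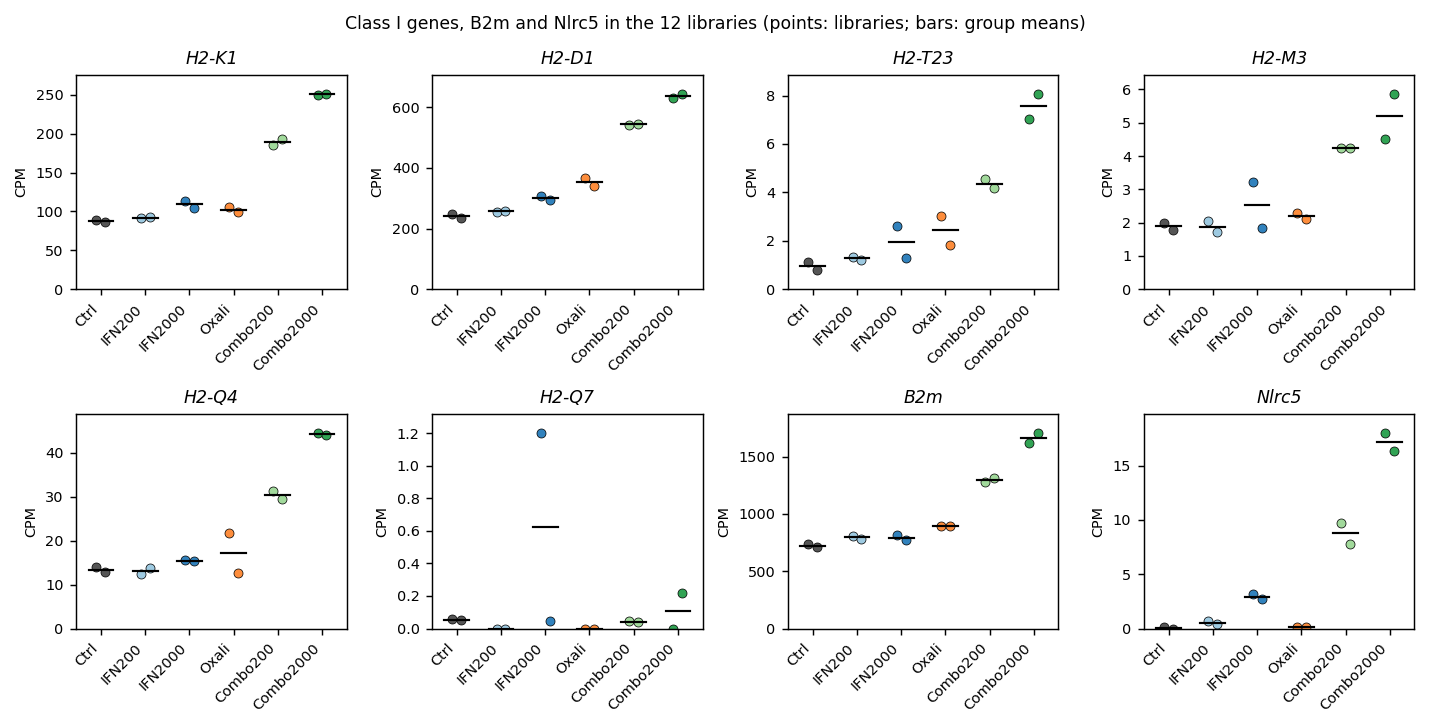
Level of each gene in CPM (y axes from 0, a scale of its own per panel) in the 6 groups on the x axis, with points for libraries and bars for group means. In the panels of the 7 genes tested both combinations lie above the other groups, and in the H2-Q7 panel 1 IFN2000 library stands alone.

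The comparisons with Ctrl ask which treatments raised class I transcripts on their own. IFN200 changed 0 of the 7 members in edgeR's quasi-likelihood test with Benjamini-Hochberg adjustment, which gave all adjusted p-values below (0.114% of all genes were called higher), and none in DESeq2. At an unadjusted p under 0.05 the edgeR count was 3: B2m with a log2 difference of 0.14 (SE 0.037, adjusted p = 0.318), H2-D1 with 0.092 (SE 0.041, adjusted p = 0.799), and Nlrc5. Nlrc5 had 25 counts in IFN200 against 2 in Ctrl. That is a CPM ratio of 10.3, with a 95% counting interval of 2.57 to 89.9 (exact, pooled counts) and an adjusted p of 0.267.

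IFN2000 raised 4 of the 7 members, Nlrc5 among them, where 8.39% of all genes were higher. Nlrc5 had the largest ratio, 55.2 (counting interval 14.99 to 461, adjusted p = 5.35e-07). The classical chains rose 1.25-fold (H2-D1, log2 0.32, SE 0.041, adjusted p = 3.29e-05) and 1.25-fold (H2-K1, log2 0.33, SE 0.048, adjusted p = 0.000144). Without the 2 libraries with T cell transcripts they still passed (log2 0.29, adjusted p = 0.000697 for H2-D1 and 0.26, adjusted p = 0.00406 for H2-K1).

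B2m was 0.14 (SE 0.037, adjusted p = 0.0154) higher in IFN2000 on the log2 scale. This call was lost without the 2 libraries with T cell transcripts (0.096, adjusted p = 0.193), without IFN2000 replicate 2 (0.097, adjusted p = 0.151), without Ctrl replicate 2 (0.12, adjusted p = 0.119), and with a correction for transcript length and GC content (0.054, adjusted p = 0.227). H2-T23 missed the threshold at 1.04 (SE 0.35, adjusted p = 0.0502) and passed it in DESeq2 (0.0395). Its value moved with IFN2000 replicate 2, being lower without the T cell libraries (0.44, adjusted p = 0.618) and higher without replicate 3 (1.46, adjusted p = 0.00207). H2-M3 was at 0.43 (SE 0.26, adjusted p = 0.288) and moved likewise, without the T cell libraries (-0.037, adjusted p = 0.969) and without replicate 3 (0.78, adjusted p = 0.0231). H2-Q4 differed by 0.21 (SE 0.16, adjusted p = 0.413).

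Oxali raised 5 of the 7 members, beside 34.8% of all genes. H2-D1 rose by 0.55 (SE 0.041, adjusted p = 3.98e-10), B2m by 0.31 (SE 0.037, adjusted p = 3.51e-07) and H2-K1 by 0.23 (SE 0.049, adjusted p = 0.000293). With the length and GC correction B2m rose more (0.49, adjusted p = 5.61e-14). H2-T23 rose by 1.35 (SE 0.34, adjusted p = 0.00175), but the call was lost without Oxali replicate 1 (0.92, adjusted p = 0.0605). H2-Q4 passed narrowly, at 0.37 (SE 0.16, adjusted p = 0.0454). This call was lost in 9 of the 12 fits that left out 1 library and in DESeq2 (0.177), and without Oxali replicate 1 the sign turned (-0.086, adjusted p = 0.514). H2-M3 was at 0.23 (SE 0.27, adjusted p = 0.469). For Nlrc5 no fold is given, since neither group rose above 3 counts in a library.

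Both combinations raised 7 of the 7 members tested, Nlrc5 among them, beside 35.6% of all genes higher in Combo200 and 35.7% in Combo2000. On the log2 scale Combo200 lay above Ctrl by 0.84 (SE 0.037) for B2m, 1.12 (SE 0.047) for H2-K1, 1.17 (SE 0.041) for H2-D1, 1.17 (SE 0.23) for H2-M3, 1.19 (SE 0.14) for H2-Q4 and 2.18 (SE 0.30) for H2-T23, with adjusted p-values from 4.44e-15 to 0.000159. Combo2000 lay above Ctrl by 1.204 (SE 0.037) for B2m, 1.40 (SE 0.041) for H2-D1, 1.45 (SE 0.22) for H2-M3, 1.52 (SE 0.047) for H2-K1, 1.73 (SE 0.13) for H2-Q4 and 2.97 (SE 0.27) for H2-T23, with adjusted p-values from 3.19e-16 to 8.73e-06. In linear terms B2m rose 2.30-fold, H2-D1 2.64-fold, H2-K1 2.88-fold and H2-T23 7.84-fold in Combo2000.

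Nlrc5 rose 164 times in Combo200 (counting interval 45.1 to 1357) and 325 times in Combo2000 (89.6 to 2684), with adjusted p-values of 2.74e-12 and 2.65e-14. The intervals are wide because they rest on the 2 counts in Ctrl. Nlrc5 passed the filter only through the groups in which it was high. Its rises over Ctrl, here and above, are thus partly set by the filter. The median log2 difference from Ctrl over the 7 members was 0.092 for IFN200, 0.33 for IFN2000, 0.37 for Oxali, 1.17 for Combo200 and 1.52 for Combo2000, beside at most 0.02 over all genes tested. These comparisons share the control libraries.

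**Figure D3:**
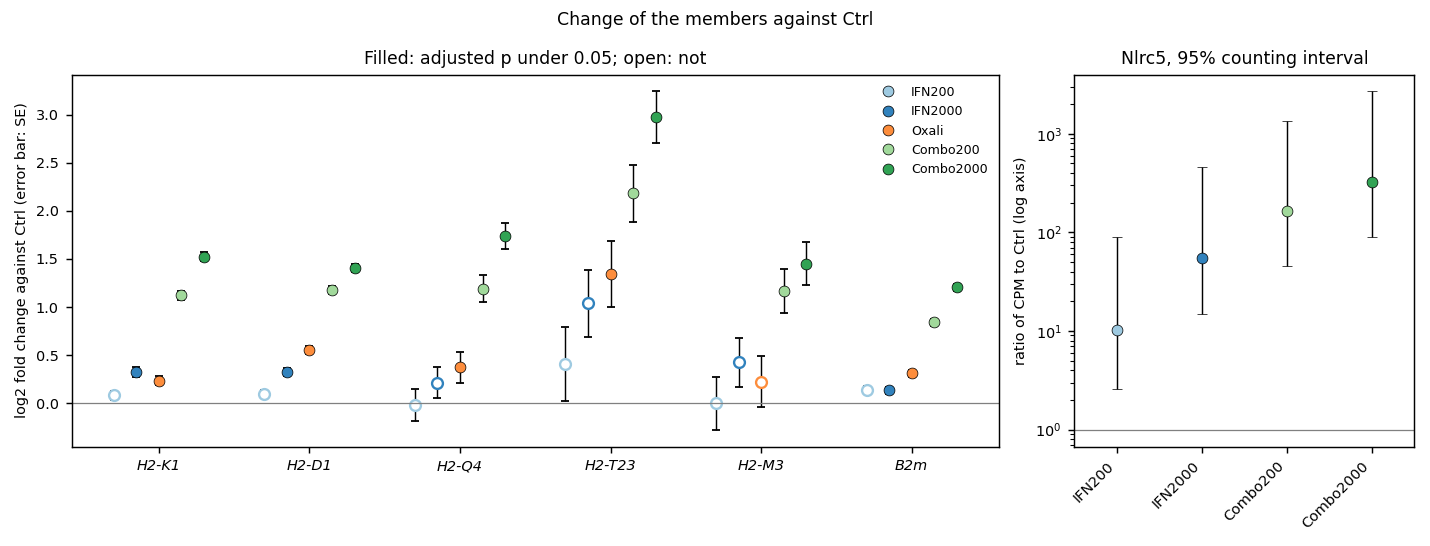
Left, log2 fold change against Ctrl with its SE for 6 genes in 5 treatment groups, filled where the adjusted p was under 0.05. Right, ratio of Nlrc5 CPM to Ctrl on a log axis with 95% counting intervals, from 10.3 in IFN200 to 325 in Combo2000.

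The combinations were then set against each agent alone. Adding 200 pg of IFNγ to Oxali raised 6 of the 7 members, where 1.58% of all genes were higher, and adding 2000 pg raised 7, against 3.37%. Both counts include Nlrc5, whose rise over Oxali is partly set by the filter on low counts. Over Oxali, H2-K1 rose by 0.89 (SE 0.046, adjusted p = 3.00e-11) in Combo200 and by 1.29 (SE 0.045, adjusted p = 2.38e-14) in Combo2000. H2-D1 rose by 0.62 (SE 0.040) and 0.85 (SE 0.040), B2m by 0.53 (SE 0.037) and 0.89 (SE 0.037), and H2-Q4 by 0.82 (SE 0.13) and 1.36 (SE 0.12), with adjusted p-values of at most 0.000722. Nlrc5 rose 74.1 times (counting interval 31.5 to 229.5) and 147 times (62.7 to 454), with adjusted p-values of 4.88e-11 and 1.25e-13.

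The sparse heavy chains were less certain at the lower dose. H2-M3 rose by 0.94 (SE 0.22, adjusted p = 0.0217) in Combo200 and by 1.22 (SE 0.21, adjusted p = 0.000678) in Combo2000. Its call in Combo200 was lost in DESeq2 (0.0767) and without any 1 of the Ctrl, Oxali and Combo200 libraries (adjusted p from 0.0507 to 0.293). H2-T23 missed the threshold in Combo200, at 0.83 (SE 0.23, adjusted p = 0.0896), and rose by 1.63 (SE 0.21, adjusted p = 2.64e-05) in Combo2000. In Combo200 it passed without Oxali replicate 1 (1.26, adjusted p = 0.0450) or without either IFN2000 library (adjusted p = 0.0178 and 0.0165).

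Adding Oxali to IFNγ raised 7 of the 7 members at either dose, beside 36.5% of all genes higher at 200 pg and 38.5% at 2000 pg. At 200 pg the heavy chains and B2m rose by 0.70 (SE 0.037) for B2m to 1.77 (SE 0.27) for H2-T23 on the log2 scale, and at 2000 pg by 1.02 (SE 0.20) for H2-M3 to 1.93 (SE 0.22) for H2-T23. Without the 2 libraries with T cell transcripts the rise at 2000 pg was larger for both of these (1.48, adjusted p = 1.02e-05 for H2-M3 and 2.52, adjusted p = 2.55e-08 for H2-T23). Nlrc5 rose by 3.98 (SE 0.23, adjusted p = 1.01e-11) at the lower dose and by 2.55 (SE 0.14, adjusted p = 4.54e-12) at the higher. Nlrc5 thus differed with Oxali where IFNγ was present, whereas without IFNγ both groups were at the detection limit.

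Between the IFNγ doses given alone, 3 of the 7 members rose, beside 11.3% of all genes. Nlrc5 rose 5.35 times (counting interval 3.47 to 8.56, adjusted p = 2.17e-05), H2-K1 by 0.24 (SE 0.047, adjusted p = 0.00121) and H2-D1 by 0.23 (SE 0.041, adjusted p = 0.000650). B2m differed by -0.0030 (SE 0.037, adjusted p = 0.967). H2-T23 was at 0.63 (SE 0.31, adjusted p = 0.168) and H2-M3 at 0.43 (SE 0.25, adjusted p = 0.235). Both passed without IFN2000 replicate 3 (1.05, adjusted p = 0.00990 and 0.78, adjusted p = 0.0161), a fit that keeps the library with most T cell transcripts as the single IFN2000 library. Without the 2 libraries with T cell transcripts the differences were near 0 (0.031, adjusted p = 0.979 for H2-T23 and -0.038, adjusted p = 0.959 for H2-M3). H2-Q4 was at 0.23 (SE 0.15, adjusted p = 0.313) and passed without either Oxali library (adjusted p = 0.0453 and 0.0463).

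From Combo200 to Combo2000, 6 of the 7 rose, beside 1.21% of all genes. Nlrc5 rose 1.98 times (counting interval 1.76 to 2.23, adjusted p = 1.40e-05), H2-K1 by 0.40 (SE 0.043, adjusted p = 3.72e-06) and B2m by 0.36 (SE 0.037, adjusted p = 1.36e-06), and these 3 calls stood on leaving out any 1 library. H2-D1 rose by 0.23 (SE 0.040, adjusted p = 0.00201) and missed the threshold without Combo200 replicate 2 (0.22, adjusted p = 0.0666) or Combo2000 replicate 3 (0.21, adjusted p = 0.0566). H2-Q4 rose by 0.55 (SE 0.11, adjusted p = 0.0102) and missed it without any 1 of the 4 libraries compared (adjusted p from 0.131 to 0.366) and in DESeq2 (0.720). H2-T23 rose by 0.79 (SE 0.19, adjusted p = 0.0338) and missed it without any 1 of the Ctrl, IFN200, Combo200 and Combo2000 libraries (adjusted p from 0.0649 to 0.542) and in DESeq2 (0.261). H2-M3 was at 0.28 (SE 0.18, adjusted p = 0.686). Without the 2 libraries with T cell transcripts H2-Q4 (0.51, adjusted p = 0.123) and H2-T23 (0.73, adjusted p = 0.0936) did not pass.

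Whether IFNγ raised the members more with Oxali present than without it was tested as an interaction, (Combo minus Oxali) minus (IFN minus Ctrl), on the log2 scale. At 200 pg the interaction was above 0 in 3 of the 7, against 0.562% of all genes: H2-K1 (0.81, SE 0.067, adjusted p = 3.77e-07), H2-D1 (0.53, SE 0.058, adjusted p = 2.10e-05) and B2m (0.39, SE 0.052, adjusted p = 0.000244). At 2000 pg it was above 0 in 4, against 2.12%: H2-Q4 (1.15, SE 0.21, adjusted p = 0.00311), H2-K1 (0.97, SE 0.066, adjusted p = 3.16e-08), B2m (0.76, SE 0.052, adjusted p = 3.16e-08) and H2-D1 (0.53, SE 0.058, adjusted p = 1.34e-05). The H2-Q4 call at 2000 pg was lost without Ctrl replicate 1 (1.08, adjusted p = 0.0788). At 200 pg H2-Q4 was at 0.84 (SE 0.21, adjusted p = 0.0819), and it passed without Oxali replicate 1 (1.296, adjusted p = 3.29e-05) or without either IFN2000 library (adjusted p = 0.0470 and 0.0441).

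For the sparse genes the interaction was imprecise. H2-M3 was at 0.94 (SE 0.35, adjusted p = 0.337) and 0.80 (SE 0.34, adjusted p = 0.232) at the lower and the higher dose, and H2-T23 at 0.43 (SE 0.46, adjusted p = 0.814) and 0.59 (SE 0.44, adjusted p = 0.548). At the higher dose, without the 2 libraries with T cell transcripts, the value was larger for H2-M3 (1.26, adjusted p = 0.0819) and for H2-T23 (1.18, adjusted p = 0.274), and neither passed. The Nlrc5 interactions had an SE of 1.62 and 1.504, with 2 counts in Ctrl and 5 in Oxali, so a difference could not be detected at this depth.

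The step from 200 to 2000 pg can be compared with and without Oxali while leaving out Ctrl and Oxali. For Nlrc5 this step was smaller in the presence of Oxali, by 1.43 on the log2 scale (difference -1.43, SE 0.34, adjusted p = 0.0186): its level rose 5.35 times without Oxali and 1.98 times with it. For B2m the step was larger with Oxali, by 0.37 (SE 0.052, adjusted p = 0.000492). These were 2 of the 7 members, where 6.59% of all genes differed in either direction. The Nlrc5 difference missed the threshold without IFN200 replicate 1 (-1.89, adjusted p = 0.0652), IFN200 replicate 2 (-1.09, adjusted p = 0.122), IFN2000 replicate 2 (-1.297, adjusted p = 0.0748) or Combo200 replicate 2 (-1.26, adjusted p = 0.0613), and without both libraries with T cell transcripts (-1.46, adjusted p = 0.0686). For H2-K1 the difference was 0.16 (SE 0.064, adjusted p = 0.144), and with the length and GC correction it passed (0.21, adjusted p = 0.0167). For H2-D1 it was -0.0016 (SE 0.057, adjusted p = 0.989).

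On the linear scale of CPM, both combination libraries lay above the sum of the single effects, added to the Ctrl mean, in 7 of the 7 members tested at either dose. This is a description with no test. H2-K1 reached 1.77 times that sum at 200 pg and 2.01 times at 2000 pg, H2-D1 1.47 and 1.54 times, and B2m 1.34 and 1.72 times. For H2-Q4 the ratios were 1.79 and 2.30, for H2-T23 1.59 and 2.21, and for H2-M3 1.93 and 1.83. Nlrc5 stood farthest above the sum, at 14.4 times at 200 pg and 5.75 times at 2000 pg.

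**Figure D4:**
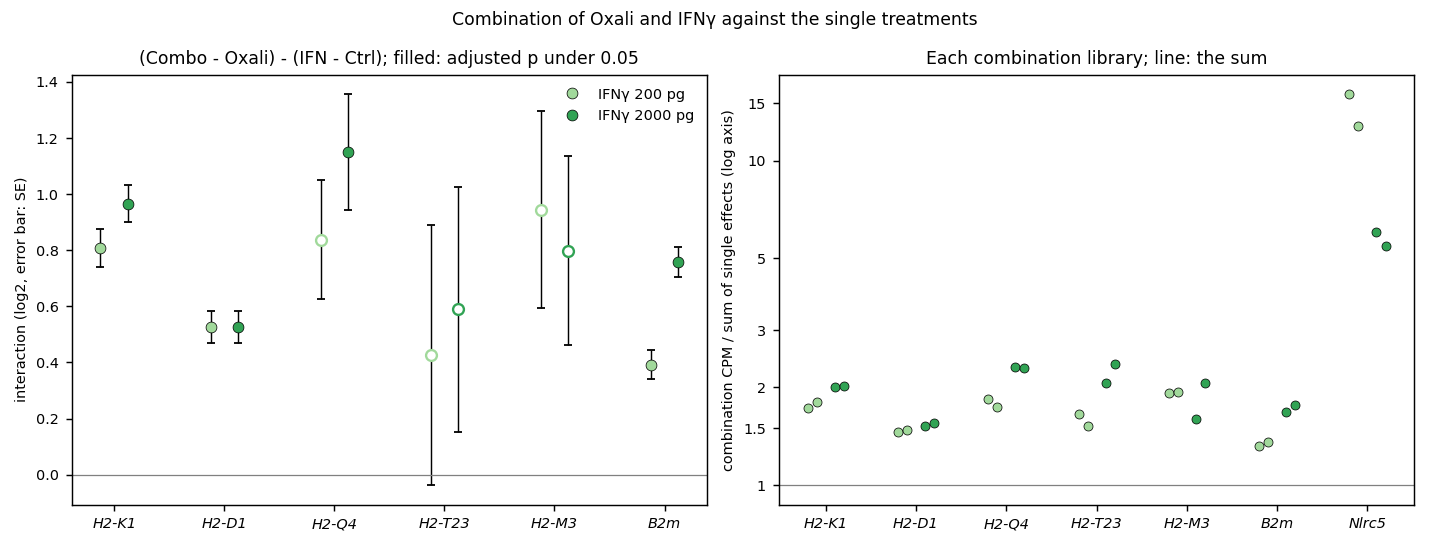
Left, interaction of Oxali and IFNγ on the log2 scale with its SE for 6 genes at both IFNγ doses, filled where the adjusted p was under 0.05. Right, CPM of each combination library divided by the sum of the single effects, on a log axis, for 7 genes. The points lie above 1, those of Nlrc5 highest.

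Ratios within a library do not depend on its depth or scaling. For each count of H2-D1 there were 0.358 and 0.365 counts of H2-K1 without treatment, 0.359 and 0.359 after IFN200, 0.371 and 0.354 after IFN2000, 0.288 and 0.291 after Oxali, 0.344 and 0.354 after Combo200 and 0.397 and 0.390 after Combo2000. The Oxali libraries were the lowest of the 12 and the Combo2000 libraries the highest. Summing rows cannot place reads that heavy chains share with other genes, such as Gm11131, which holds 16.06% of the 50-base words of H2-Q4. The 32 rows of H2 class I heavy chains were also summed, which sets aside how a read shared among them was divided. Their sum per count of B2m was 0.497 and 0.494 without treatment, 0.465 and 0.489 after IFN200, 0.564 and 0.564 after IFN2000, 0.585 and 0.534 after Oxali, 0.628 and 0.621 after Combo200 and 0.602 and 0.582 after Combo2000. Ctrl and IFN200 lay below the other groups. H2-D1 held 67.4% ± 0.0950 of the summed heavy chain counts in Ctrl, 70.8% ± 0.754 in Oxali and 64.7% ± 0.336 in Combo2000, and H2-K1 held 24.4% ± 0.289, 20.5% ± 0.373 and 25.5% ± 0.186.

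Fitted as 1 row in place of its parts, the heavy chain sum rose by 0.32 (SE 0.042, adjusted p = 3.79e-05) in IFN2000, 0.48 (SE 0.042, adjusted p = 3.89e-09) in Oxali, 1.17 (SE 0.042, adjusted p = 6.08e-15) in Combo200 and 1.46 (SE 0.042, adjusted p = 2.41e-16) in Combo2000. In IFN200 it was at 0.082 (SE 0.042, adjusted p = 0.816). The interaction of the sum was 0.61 (SE 0.059, adjusted p = 3.95e-06) at the lower dose and 0.65 (SE 0.059, adjusted p = 1.19e-06) at the higher. H2-K1 and H2-D1 had the same direction and the same call in each of these comparisons. They hold most of the heavy chain counts, so the sum is no independent check of them.

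**Figure D5:**
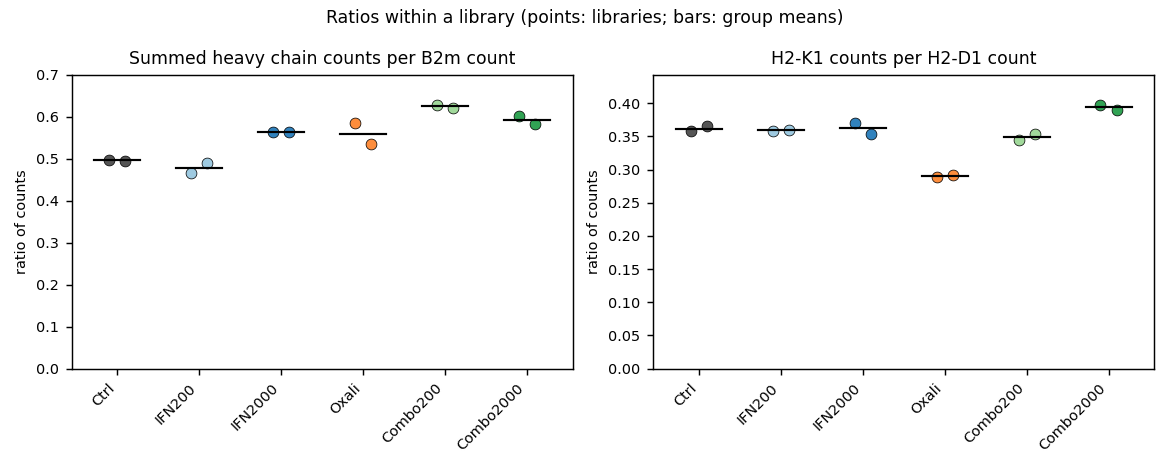
Ratios of counts within each library by group, from 0 on the y axes, with points for libraries and bars for means. One panel gives summed heavy chain counts per B2m count, the other H2-K1 per H2-D1, which is lowest in both Oxali libraries.

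Other class I genes of the H2 family and its relatives made a list of 29, of which 26 were in the table and 10 were tested. In Oxali 6 of the 10 were higher than Ctrl (median log2 difference 0.71), in Combo200 10 (median 1.40) and in Combo2000 10 (median 1.37), beside 34.8%, 35.6% and 35.7% of all genes. Over Oxali 4 of the 10 were higher in Combo200 and 4 in Combo2000, beside 1.58% and 3.37% of all genes. From Combo200 to Combo2000 0 were higher, beside 1.21%. The interaction was above 0 in 0 of the 10 at either dose (medians 0.23 and 0.20), beside 0.562% and 2.12%. Some of the 10 had few counts, so a missed call need not mean that there was no interaction. H2-Q6, another Qa gene, had the largest difference in Combo2000, with 20 and 14 counts against 2 and 0 in Ctrl. It had at most 7 counts in a library outside the combinations and passed the filter only through them. Its rise, and its part in the counts and medians of the combinations, are thus partly set by the filter. Procr, which encodes the endothelial protein C receptor, had the smallest (0.62, SE 0.12, adjusted p = 0.000100).

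Genes that make and load peptides made a list of 14, all of which were tested. Of these 6 were higher in IFN200 (median 0.22), 11 in IFN2000 (median 0.75), 10 in Oxali with 2 lower (median 0.70), and 10 in Combo2000 with 3 lower (median 1.94). Of all genes 0.114% were higher in IFN200 and 8.39% in IFN2000, 34.8% were higher and 32.8% lower in Oxali, and 35.7% were higher and 33.5% lower in Combo2000. Psmb9, a subunit of the immunoproteasome, had 7 and 4 counts without treatment, 59 and 64 after IFN200, 340 and 295 after IFN2000, 66 and 72 after Oxali, 899 and 1028 after Combo200 and 2278 and 1920 after Combo2000. Its rise over Ctrl was 3.18 (SE 0.30, adjusted p = 2.07e-05) in IFN200 and 8.14 (SE 0.13, adjusted p = 3.33e-20) in Combo2000, the largest of the list. Sec22b, a SNARE protein of the early secretory pathway, had the lowest value in Combo2000 (-0.32, SE 0.044, adjusted p = 2.12e-06). The other 2 that fell there were Canx and Pdia3, which help glycoproteins fold in the endoplasmic reticulum and were named after their values were seen. The interaction was above 0 in 8 of the 14 at 200 pg, beside 0.562% of all genes, and in 6 at 2000 pg, beside 2.12%. The step between the doses was smaller with Oxali in 8 of the 14, beside 3.19% of all genes.

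The DNA-binding partners of NLRC5 and their coactivators made a list of 10. In Oxali 2 were higher and 7 lower (median -0.44), where 34.8% of all genes were higher and 32.8% lower. In Combo2000 2 were higher and 7 lower (median -0.45), where 35.7% of all genes were higher and 33.5% lower. Rfx5, a subunit of RFX, rose by 0.94 (SE 0.088, adjusted p = 1.21e-08) in Oxali and by 1.12 (SE 0.084, adjusted p = 4.44e-10) in Combo2000, the highest of the list. Atf1, a relative of CREB, had the lowest value, -0.69 (SE 0.049, adjusted p = 2.12e-10) in Combo2000 and -0.61 (SE 0.050, adjusted p = 1.75e-09) in Oxali.

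Of 12 genes of IFNγ and NF-κB signalling, 3 were higher and 1 lower in IFN2000 (median 0.011), 10 higher in Oxali (median 0.74), 11 in Combo200 (median 1.28) and 12 in Combo2000 (median 1.58). The shares of all genes that were higher in these 4 comparisons were 8.39%, 34.8%, 35.6% and 35.7%. In IFN2000 1116 of the 13177 genes tested were lower. Nfkb1, which encodes a subunit of NF-κB, had the smallest difference in Combo2000 (0.11, SE 0.038, adjusted p = 0.0136).

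Of 7 class II genes, 4 were tested. Cd74, the invariant chain, had 2 and 1 counts without treatment, 9 and 8 after IFN2000, 31 and 28 after Oxali, 99 and 75 after Combo200 and 396 and 352 after Combo2000. H2-DMa, which edits class II peptides, rose by 1.68 (SE 0.26, adjusted p = 1.22e-05) in Oxali and 1.92 (SE 0.25, adjusted p = 1.03e-06) in Combo2000. Ciita, the class II counterpart of Nlrc5, had 48 and 41 counts in Combo2000 and 6 and 7 in Combo200, against at most 4 in any library of the other groups.

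Genes whose log2 CPM followed a member most closely over the 12 libraries were sought among 1157 genes of sufficient level and spread. The correlations are descriptions, since libraries share treatments. For H2-K1 such genes were Ube2l6 (Pearson's r = 0.990) and Parp14 (0.985). For B2m they were Dtx3l (0.993), Ube2l6 (0.985) and Snx10 (0.983). For Nlrc5 they were the interferon-inducible GTPases Tgtp1 (0.986), Gbp2 (0.970) and Igtp (0.969). Among the 7 members r ran from 0.818 for H2-Q4 with Nlrc5 to 0.983 for H2-K1 with B2m. The 6 pairs with Nlrc5 were the 6 lowest.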

How the data were processed

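Poly(A) RNA of 12 Myc-CaP libraries was sequenced by the authors, and raw counts per gene were deposited. The methods of the study name alignment to GRCm38 with STAR and counting with featureCounts, whereas the submitters' processing notes name STAR 2.7.3a and RSEM 1.3.0. The deposited counts are whole numbers, and the handling of strand and of reads that match several genes is not given in the sources used here. Of 55216 rows, 28300 held no count.

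Counts were fitted with edgeR 4.0.16 (R 4.3.3): filterByExpr (minimum count 10, minimum total 15), TMM scaling, 1 mean per group over the 12 libraries, and the quasi-likelihood test with Benjamini-Hochberg adjustment over 13177 genes. Changed, rose, fell, passed and called mean an adjusted p under 0.05, and SE is the size of the log2 fold change over the square root of F. CPM uses TMM-scaled totals. Ratios of Nlrc5 have exact conditional 95% intervals on pooled counts, which cover counting error only. Promoters are RefSeq's for GRCm38.p6, and gene coordinates are those of GENCODE M21.

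The named genes are the 8 members, the 3 genes most correlated with each of H2-K1, B2m and Nlrc5 (prior count 2), and the genes of each list with the highest and lowest value in Combo2000. Ciita was named after its values were seen. Some genes that this rule or the marker lists name are not reported here. Members and lists were chosen with earlier results of these data known. The fit was checked on simulated counts. DESeq2 1.42.0, other scalings and filters, a replicate block, a length and GC correction and leaving out each library were alternatives, and leaving out the 2 libraries with T cell transcripts was added after seeing the data.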

Additional observations from a re-analysis of the deposited data

Results flagged for a closer look

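These results were set apart because the effect of IFNγ differed between cells with and without Oxali by a test of the difference itself (edgeR's quasi-likelihood test, Benjamini-Hochberg adjustment). At 200 pg the differences on the log2 scale were 0.81 for H2-K1, 0.53 for H2-D1 and 0.39 for B2m. At 2000 pg they were 1.15 for H2-Q4, 0.97 for H2-K1, 0.76 for B2m and 0.53 for H2-D1. In each of these the effect of IFNγ was larger with Oxali. The step from 200 to 2000 pg also differed, by 0.37 for B2m, larger with Oxali, and by -1.43 for Nlrc5, smaller with Oxali. As given above, the calls of Nlrc5 here and of H2-Q4 at 2000 pg were lost on leaving out some single libraries. That of Nlrc5 was also lost without the 2 libraries with T cell transcripts.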

How the results depend on the processing

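Over the alternatives, the 98 tests of single members gave 2079 further values, of which 2001 stayed on the same side of the threshold (45 of these, called in neither fit, changed sign), 47 missed the threshold that had been passed, 30 passed one that had been missed, and 1 reversed. In another 5 fits DESeq2 gave no adjusted p. The number of all genes called also changed with the fit, so a changed count of members need not be particular to them. In IFN200 against Ctrl 15 of 13177 genes were called. With no filter on low counts it was 102 of 26916, and with the groups of the contrast alone 48 of 12094. The number of members called in IFN200 against Ctrl rose from 0 to 2 (B2m and Nlrc5) with no filter on low counts and to 1 (B2m) with the groups of the contrast alone. For the difference between the dose steps it fell from 2 to 1 in DESeq2, which gave Nlrc5 no adjusted p, and to 1 without the 2 libraries with T cell transcripts. Leaving out 1 library gave 3 to 5 members for Oxali, 3 to 6 for IFN2000, 5 to 7 for Combo200 over Oxali, 3 to 5 between the IFNγ doses alone, 3 to 6 between the combinations, 3 to 4 for each interaction and 1 to 2 for the difference between the dose steps. Both combinations kept 7 of 7 over Ctrl and over IFNγ alone, as did Combo2000 over Oxali, and IFN200 kept 0. H2-Q4 in Oxali reversed without Oxali replicate 1 (-0.086, adjusted p = 0.514) and was largest without Oxali replicate 2 (0.70, adjusted p = 5.42e-06). The cause was not tested.

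With the longest transcript as the length, levels in Ctrl were 53.8 CPM per kilobase for H2-K1, 115 for H2-D1, 0.653 for H2-T23 and 7.44 for H2-Q4, above those with the union of exons, which is the longer length. With words of 100 bases the share found in other genes fell to 0% for H2-K1, 4.64% for H2-D1, 7.28% for H2-T23, 0% for H2-M3, 13.9% for H2-Q4 and 16.4% for H2-Q7, since longer words match less often.

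Same-numbered libraries did not deviate together (r from -0.046 to 0.045 over 21 pairs). With 2 libraries in a group the deviations mirror each other, so these pairs are not independent. Ctrl, IFN200 and Oxali hold numbers 1 and 2, and IFN2000 and both combinations 2 and 3. Whether equal numbers mark a batch was not tested otherwise. With the number as a block 1071 genes were called in IFN2000 against Ctrl, in place of 2221. For Combo200 over Oxali 142 genes were called with the block, in place of 241. With the replicate block 5 members were called for Combo200 over Oxali in place of 6, since H2-M3 missed the threshold (0.0987). In IFN2000 H2-T23 passed with it (0.0386) and B2m did not (0.0511), which left the count at 4.

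Depth limits Nlrc5 in Ctrl and Oxali, where no library had more than 3 counts, and H2-T23 and H2-M3 outside the combinations. With 2 libraries in a group, 1 library decided several calls of these genes and of H2-Q4. The conflict between titles and agent labels touches every comparison with a single treatment. The combinations differed in fewer genes from the libraries titled Oxali (241 and 574) than from those titled IFN200 (9217) and IFN2000 (9522).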
